A study of Mus musculus with 8 samples.

Results

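The genes described are 8 members of the TALE homeobox family, Meis1, Meis2, Meis3, Pbx2, Pbx3, Pbx4, Pknox1 and Pknox2, found by symbol among the 54418 Ensembl genes of the deposited tables. All 8 had an identifier, and 7 passed the filter on low counts, which kept 16011 genes; Pbx4 did not. The family was singled out because the increase of Meis2 in Bmi1-deleted cells was already known, so its values in that contrast are given as a description, and the calls of the other members come from the same contrast. The RNA came from melanocyte stem cells, which replenish the pigment cells of hair follicles, isolated by sorting from dorsal skin of mice of a mixed C57Bl-6;129Sv background at postnatal day 21. All mice carried Bmi1fl/fl, Dct-rtTA and TRE-H2B-GFP and ate doxycycline pellets, so that histone-GFP marked cells using Dct, a melanin synthesis gene. The 4 control libraries came from mice whose labels list no Cre, and the 4 Bmi1-deleted libraries from mice that also carried Tyrosinase-Cre, which is active in the pigment cell lineage. No label says that the libraries of a group came from separate animals, so each p-value reflects only how these samples spread, which may be technical.

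TALE proteins are homeodomain transcription factors with an amino acid loop extension between the first helices of the DNA-binding domain. Meis and Pknox (Prep) proteins pair with Pbx proteins, and these pairs join Hox proteins on DNA, which sharpens the choice of target genes and moves Pbx into the nucleus. Meis1 and Meis2 are known as regulators of limb, neural crest and blood development, and Polycomb complexes, of which Bmi1 is a subunit, are known to keep many such developmental genes silent.

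The coding stretch at this loop is shown for all 8 members, because it is what makes them a family and because closely related paralogs could share reads. Each line gives 69 bases from a GENCODE M21 coding transcript, 5′ to 3′, with the codons of the proline-tyrosine-proline loop in capitals.
Meis1: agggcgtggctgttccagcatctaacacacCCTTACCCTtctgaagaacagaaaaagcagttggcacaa
Meis2: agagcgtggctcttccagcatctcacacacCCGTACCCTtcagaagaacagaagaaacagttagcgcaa
Meis3: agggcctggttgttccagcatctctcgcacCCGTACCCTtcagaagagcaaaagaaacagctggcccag
Pbx2: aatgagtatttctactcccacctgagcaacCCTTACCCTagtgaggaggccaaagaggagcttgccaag
Pbx3: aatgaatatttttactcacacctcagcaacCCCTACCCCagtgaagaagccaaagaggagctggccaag
Pbx4: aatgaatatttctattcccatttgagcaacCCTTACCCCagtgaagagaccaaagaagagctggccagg
Pknox1: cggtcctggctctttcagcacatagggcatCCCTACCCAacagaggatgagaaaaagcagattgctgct
Pknox2: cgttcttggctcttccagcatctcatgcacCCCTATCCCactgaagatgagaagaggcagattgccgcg
Against Meis2, 60 of the 69 bases were identical in Meis1 and 57 in Meis3, 43 and 48 in Pknox1 and Pknox2, and 36, 36 and 34 in Pbx2, Pbx3 and Pbx4. Over whole transcripts the paralogs were nonetheless distinct. Of 11989 31-base words in the annotated Meis2 transcripts, 4 occurred in another member, as did 2 of 10701 in Meis1 and 2 of 10443 in Pknox2, and 0 in the other 5. Meis1 shared 17.6% of its words with other annotated genes, Pbx2 5.56%, Pknox1 2.17%, and Meis2 0.384%. Inside Meis1 lie 3 short unclassified transcripts on the same strand, Gm37818, 2900018N21Rik and 2610001A08Rik, with 0 to 37, 0 to 9 and 0 to 11 counts, between which and Meis1 reads could be divided. Inside Pknox1, AC166575.1 on the same strand had 14 to 95 counts, and inside Pknox2, Gm48717 on the same strand had 0 to 36 counts.

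The libraries held 8882656 to 10368174 counts each. The 10 melanocyte markers (among them Dct, Pmel and Sox10) were all detected, with a summed level of 8710 to 14680 CPM (counts scaled to a common library size after TMM normalisation) in control and 4906 to 10382 CPM in Bmi1-deleted libraries. Their median log2 change was −0.78; edgeR called 0, 7 were lower at an unadjusted p under 0.05, 2 by DESeq2 and 0 by limma on TPM, and 8 were called lower in a fit blocked on the replicate number. The part of this difference in the values of the TALE genes was not tested. Bmi1 itself, counted over the whole gene, stood at 75.4 to 97.2 CPM in control and 68.8 to 70.8 CPM in Bmi1-deleted libraries; which exons were deleted is not stated in the labels, so these counts may include reads outside them. On the TPM scale (transcripts scaled by length and library size) Bmi1 was at 24.2 to 36.4 in control and 7.96 to 19.5 in Bmi1-deleted libraries, groups that did not overlap on either scale. Across all genes, 14 of 16011 were called higher in Bmi1-deleted libraries and 1 lower (edgeR quasi-likelihood test, Benjamini-Hochberg adjusted p under 0.05), or 0.0874% and 0.00625%. Of the 7 tested TALE genes, 1 was called higher, Meis2, and 0 lower; at an unadjusted p under 0.05 there were 3, all higher, and DESeq2 and limma on the TPM table each called 1 higher and 0 lower. In a fit blocked on the replicate number, the members' count was again 1 higher and 0 lower, where 1.71% and 0.706% of all genes were called. Because the family was chosen on this contrast, nothing is read from these counts. The median log2 change of the 7 was 0.41, against 0.01 over all genes tested.

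Meis2 (ENSMUSG00000027210, mm10 chromosome 2, 115863064 to 116065839, minus strand), which encodes a Pbx partner known from limb and neural crest, was the member whose RNA rose. The control libraries 1 to 4 held 43, 29, 25 and 14 counts, and the Bmi1-deleted libraries 1 to 4 held 213, 226, 204 and 247. On the normalised scale these were 4.57, 2.99, 2.67 and 1.58 CPM in control and 23.5, 22.5, 22.7 and 28.0 CPM after deletion. The groups stood far apart, with the lowest Bmi1-deleted library above the highest control, and the Bmi1-deleted libraries lay closer together relative to their mean than the controls did. Mean levels were 2.95 ± 1.23 and 24.2 ± 2.60 CPM (SD, n = 4), a ratio of 8.18, and the fitted log2 change was 3.02 (SE 0.31). Of the members, 1 of the 7 tested had groups that did not overlap and were higher after deletion, against 2.79% of all tested genes, and 0 of 7 were lower, against 2.39%. On the deposited log2 TPM scale, which adds 1 before the logarithm and so understates changes of low genes, the difference of Meis2 was 1.81, where the median of all genes was −0.14.

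**Figure D1:**
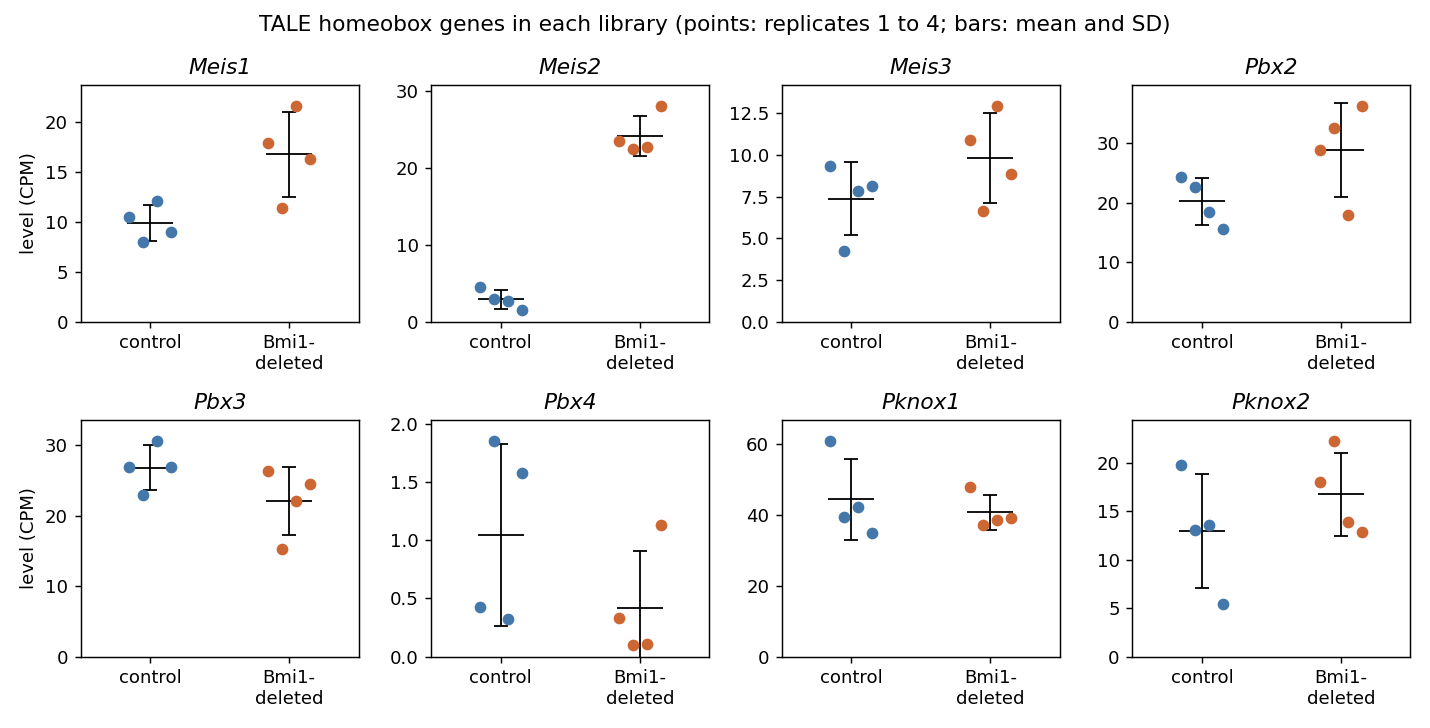
Level of each TALE homeobox gene in CPM (vertical axes from 0, a different range in each panel) in the 4 control and 4 Bmi1-deleted libraries; points are libraries, ordered from replicate 1 to 4, and bars show the mean and SD. Meis2 lies between 1.58 and 4.57 CPM in control and between 22.5 and 28.0 CPM in Bmi1-deleted libraries, while the groups of the other 7 genes overlap.

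The 250 bases before the RefSeq start (GRCm38.p6) are shown for Meis2 and for its closest paralog Meis1, with CpG dinucleotides in capitals. They are the regions ahead of that start for a gene that changed and for one that was not called. The Meis2 stretch is chr2:116064620-116064869 and the Meis1 stretch chr11:19018970-19019219, both minus strand, 5′ to 3′. The Meis2 stretch lies wholly inside the gene span that GENCODE gives (115863064 to 116065839), as do those of Meis3 and Pbx2 in theirs. The stretches of Meis1 and Pbx4 cross the edge of their spans, so the positions compared below are unlike.
Meis2: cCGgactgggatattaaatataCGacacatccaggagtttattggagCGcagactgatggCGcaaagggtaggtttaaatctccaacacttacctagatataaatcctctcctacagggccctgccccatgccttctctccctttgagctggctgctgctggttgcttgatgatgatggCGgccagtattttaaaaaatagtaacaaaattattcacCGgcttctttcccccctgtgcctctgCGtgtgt
Meis1: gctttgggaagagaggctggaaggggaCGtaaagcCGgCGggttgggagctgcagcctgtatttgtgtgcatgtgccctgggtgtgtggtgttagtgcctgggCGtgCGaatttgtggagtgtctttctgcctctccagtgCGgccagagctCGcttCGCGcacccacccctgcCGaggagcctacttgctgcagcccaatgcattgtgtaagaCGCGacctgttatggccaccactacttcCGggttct
The Meis2 stretch held 7 CpG and 47.6% G or C, and the Meis1 stretch 13 CpG and 59.6%. The median of 32851 promoters was 6 CpG, and 53.7% of them held fewer than Meis2 and 68.5% fewer than Meis1. Meis3 had 12 CpG, Pbx4 12 and Pbx2 27, and the table matched 5 of the 8 members. Neither TGACAG, the core motif of Meis proteins, nor TGATNNAT, a form of the joint Pbx and Hox motif, was found on either strand in any of the 5; they occurred in 15.9% and 7.68% of all promoters. No binding or chromatin data were part of the files used here.

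The other Meis genes were not called. Meis1 (chromosome 11, 18879817 to 19018985), a regulator of blood, limb and neural crest development, had 10.5, 8.03, 12.1 and 9.05 CPM in control libraries 1 to 4 and 17.9, 11.4, 21.6 and 16.3 CPM in Bmi1-deleted libraries 1 to 4. Each Bmi1-deleted library stood above the control with its number, but the groups overlapped, since Bmi1-deleted 2 lay below control 3. The fitted log2 change was 0.76 (SE 0.26, edgeR adjusted p = 0.431), and unadjusted p was 0.0121 by the same model across all genes. Meis3 (chromosome 7, 16175090 to 16186504), the family member known from hindbrain and gut neural crest, had 9.35, 4.22, 7.81 and 8.15 CPM in control and 10.9, 6.66, 12.9 and 8.84 CPM in Bmi1-deleted libraries. Here too each Bmi1-deleted library was higher than its same-numbered control within overlapping groups, with a log2 change of 0.41 (SE 0.34, edgeR adjusted p = 0.843). In both genes and in both genotypes, library 2 was the lowest of its group.

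The makeup of the Meis genes differed between the groups. To compare genes, CPM were divided by the length of each gene's merged exons. On this scale Meis2 made up 8.77%, 10.6%, 5.80% and 3.70% of the summed Meis level in control libraries 1 to 4 and 27.5%, 36.9%, 23.6% and 34.9% in Bmi1-deleted libraries 1 to 4. The mean share of Meis2 was 7.21% ± 3.07 (SD, n = 4) before and 30.7% ± 6.27 after deletion. Meis3 held the largest share in both groups on this scale, 65.3% ± 6.53 and 45.7% ± 4.71, and Meis1 held 27.4% ± 4.56 and 23.6% ± 1.70. In the deposited TPM, which divide by effective lengths instead, Meis2 held 13.3% ± 9.61 and 53.3% ± 13.2, and after deletion it exceeded Meis3 in 3 of 4 libraries, the exception being Bmi1-deleted 3 at 37.7% against 39.5%. Both scales thus gave Meis2 a larger share after deletion, but they differed on whether it then passed Meis3. These shares come from the contrast in which the family was noticed and are descriptions.

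**Figure D2:**
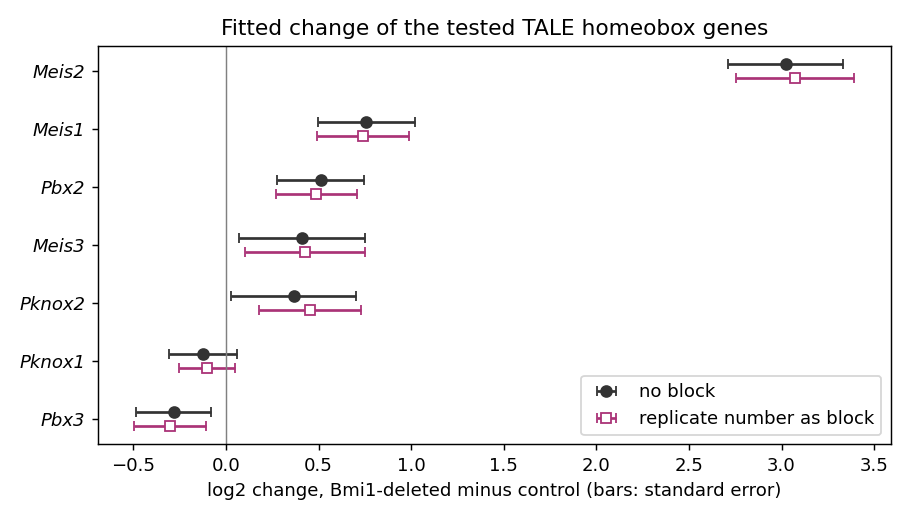
Fitted log2 change, Bmi1-deleted minus control, of the 7 tested TALE homeobox genes (horizontal axis; bars are standard errors), without a block and with the replicate number as a block. Meis2 stands at 3.02 and 3.08, and the other 6 genes lie between −0.30 and 0.76 in both fits.

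Pbx genes encode the common partners of Meis, Pknox and Hox proteins, and none was called. Pbx2 (chromosome 17, 34591266 to 34597400), a broadly expressed member, had 24.3, 22.7, 18.4 and 15.6 CPM in control and 28.9, 32.6, 18.0 and 36.2 CPM in Bmi1-deleted libraries 1 to 4. Bmi1-deleted 3 lay among the controls and the other Bmi1-deleted libraries above all of them, with a log2 change of 0.51 (SE 0.24, edgeR adjusted p = 0.594). Gpsm3, a gene on the same strand, overlaps the start of Pbx2 and had 36 to 119 counts against 138 to 328 for Pbx2. Pbx3 (chromosome 2, 34171457 to 34373142), known from the hindbrain circuits that control breathing, had 26.9, 22.9, 30.6 and 27.0 CPM in control and 26.4, 15.3, 22.1 and 24.5 CPM in Bmi1-deleted libraries. Each Bmi1-deleted library was below its same-numbered control, within overlapping groups (log2 change −0.28, SE 0.20, edgeR adjusted p = 0.808). In the deposited TPM Pbx3 stood at 5.06 ± 0.890 and 3.78 ± 0.411. There the groups just failed to overlap, with the lowest control and the highest Bmi1-deleted library both at 4.15 to the digits given. Pbx4 (chromosome 8, 69832491 to 69872292), a testis-enriched member, was close to the limit of detection, with 4, 18, 3 and 14 counts in control and 3, 1, 1 and 10 in Bmi1-deleted libraries. At 39 and 15 counts per group in all, Pbx4 did not pass the count filter, and 2 Bmi1-deleted libraries lay under the floor of 3 counts (0.298 to 0.340 CPM, counting error only). Without that filter its log2 change was −1.30 (edgeR adjusted p = 0.732).

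Pknox genes, whose products compete with Meis for Pbx, were not called either. Pknox1 (chromosome 17, 31564734 to 31607693), the broadly expressed and essential member, had 60.8, 39.3, 42.3 and 35.0 CPM in control and 48.0, 37.1, 38.7 and 39.0 CPM in Bmi1-deleted libraries 1 to 4. The groups overlapped almost wholly (log2 change −0.12, SE 0.19, edgeR adjusted p = 0.931); the sign turned without control 1, the highest library, where the change was 0.07. Pknox2 (chromosome 9, 36890982 to 37147407), more restricted to nervous tissue and muscle, had 19.8, 13.1, 13.6 and 5.43 CPM in control and 18.0, 22.2, 13.9 and 12.8 CPM in Bmi1-deleted libraries (log2 change 0.37, SE 0.34, edgeR adjusted p = 0.871). Its widest spread was among controls, from 5.43 CPM in control 4 to 19.8 CPM in control 1, and its groups overlapped as well. The change of Pknox2 was 0.11 without control 4, 0.65 without control 1 and 0.20 without Bmi1-deleted 2. A p above the threshold does not show that these members were unchanged.

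For Pknox1, and by a margin below the digits given for Pbx3, the 2 deposited tables differed on whether the groups overlapped. In TPM Pknox1 had 14.4, 17.4, 10.5 and 6.29 in control and 5.91, 5.04, 5.79 and 5.52 in Bmi1-deleted libraries 1 to 4, groups that did not overlap, while its CPM did. On the log2 TPM scale the limma difference was −0.92 (adjusted p = 0.595), against −0.12 from the counts. Pbx3 and Pknox1 were the members with non-overlapping TPM that were lower after deletion, and Meis2 the member with higher ones. Over all genes, 3.61% had non-overlapping TPM that were lower after deletion and 0.531% that were higher. Because Gm23935, a predicted gene, took 73.7% to 85.6% of the TPM of each library, the ratio of TPM to CPM was set against that of the median gene of the same library. The relative ratio of Pknox1 came to 1.42, 2.12, 1.93 and 1.69 in control and, after deletion, 0.919, 1.05, 1.13 and 1.30. It was lower in every Bmi1-deleted library than in any control, with a difference of −0.70 (log2). Among the 8934 genes averaging 100 counts or more, 43 (0.481%) lay further down, and 1.67% of the 8934 had non-overlapping ratios that were lower. Meis2 had 1.36, 1.07, 0.538 and 0.806 in control and 1.21, 1.49, 1.03 and 1.83 after deletion, a difference of 0.61 with overlapping groups, from controls with 43 counts at most; 68 of the 8934 genes (0.761%) lay further up. The ratio follows the effective length that the quantification gave a gene, and gene-level tables do not show which transcripts contributed. Pknox1 was singled out here after its values were seen.

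**Figure D3:**
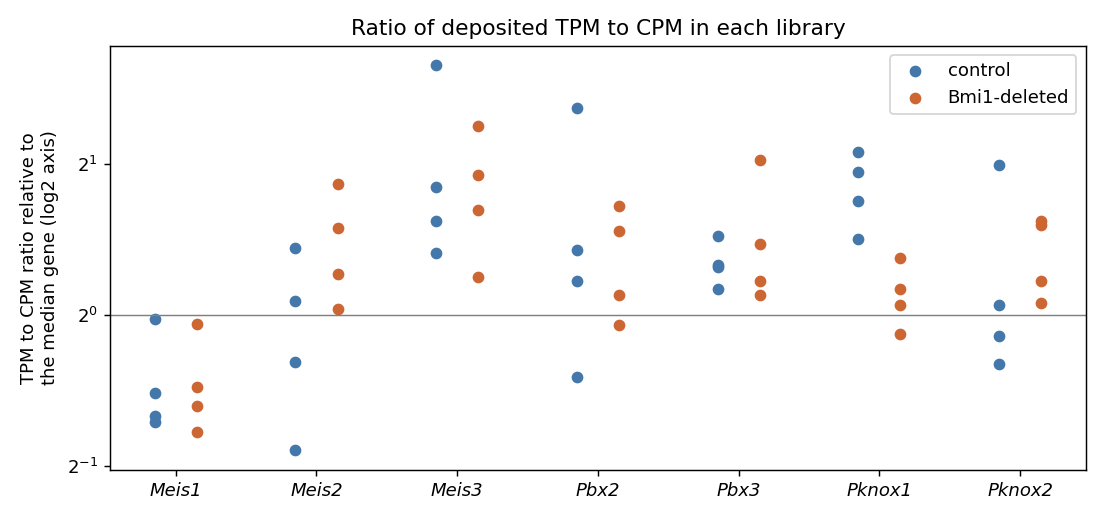
Deposited TPM divided by CPM, set against the median gene of each library (vertical log2 axis), for 7 TALE homeobox genes; points are libraries and colours the groups, and Pbx4 is left out for its low counts. Pknox1 spans 1.42 to 2.12 in control and 0.919 to 1.30 in Bmi1-deleted libraries, and the groups of the other 6 genes overlap.

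The levels within control cells do not depend on the contrast. In control TPM, Pknox1 stood highest at 12.1 ± 4.80 (SD, n = 4), followed by Pbx3 at 5.06 ± 0.890, Pbx2 at 3.95 ± 0.693, Pknox2 at 2.68 ± 2.10, Meis3 at 1.99 ± 0.577, Meis1 at 1.12 ± 0.466, Meis2 at 0.506 ± 0.427 and Pbx4 at 0.435 ± 0.265. Of neighbours in this order, Pknox1 and Pbx3 did not overlap, and the other 6 pairs did. Pknox1 over Pbx3, Meis3 over Meis1 and Meis1 over Meis2 kept their order in 4 of 4 control libraries, and the remaining 4 pairs in 3 of 4. In CPM per kilobase of merged exons, 25 of the 28 pairs of genes kept the TPM order. There Pknox1 (6.40 ± 1.64), Pbx2 (5.56 ± 1.09) and Pbx3 (4.39 ± 0.518) stood highest, and Meis2 was lowest, at 0.245 ± 0.102. Pknox1 overlapped Pbx2, and Pbx2 overlapped Pbx3, but Pbx3 did not overlap Meis3, the next in order. In Bmi1-deleted libraries Meis2 stood at 2.01 ± 0.216 CPM per kilobase, which moved it from rank 8 to rank 5 of the 8 genes; in TPM it moved from rank 7 to rank 3.

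**Figure D4:**
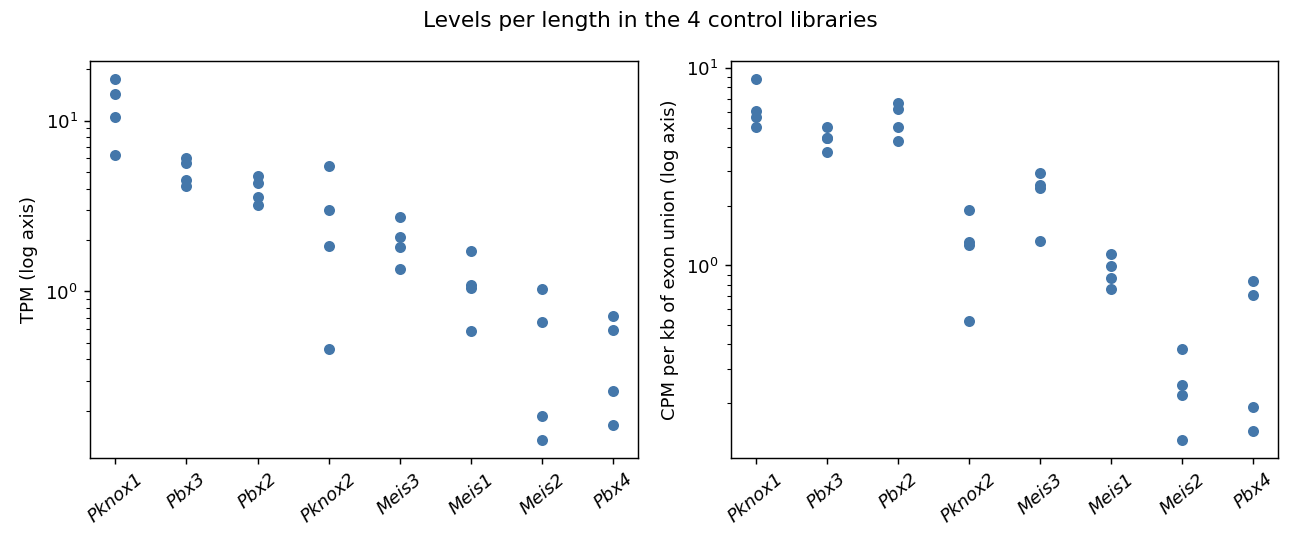
Level per length of the 8 genes in the 4 control libraries, as deposited TPM (left) and as CPM per kilobase of merged exons (right), on log axes; points are libraries. Pknox1, Pbx3 and Pbx2 stand highest on both scales, with Pknox1 at 6.29 to 17.4 TPM, and Meis2 and Pbx4 lie lowest.

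Among the other genes of the TALE superclass, 0 of 8 tested were called in either direction (0 at an unadjusted p under 0.05, and 0 by DESeq2 or by limma on TPM). With the replicate number as a block 0 were called and 1 had an unadjusted p under 0.05. Their median log2 change was 0.05, against 0.01 over all genes. Irx4 (−0.86, edgeR adjusted p = 0.734), Mkx (0.57, adjusted p = 0.92) and Irx3 (0.48, adjusted p = 0.861) had the largest absolute changes; Irx genes pattern heart, skin and nervous tissue, and Mkx is a tendon factor. Irx6 did not pass the count filter.

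Hox genes encode the DNA-binding partners of the TALE proteins. Of 39 Hox genes 19 were tested, and 1 was called higher and 0 lower, against 0.0874% and 0.00625% of all tested genes. At an unadjusted p under 0.05 there were 4, all higher. DESeq2 called 1 higher and 0 lower, and limma on TPM 0. The called gene was Hoxd8, of the trunk, at 3.23 ± 0.990 CPM in control and 15.5 ± 3.87 CPM in Bmi1-deleted libraries (log2 change 2.26, SE 0.33, edgeR adjusted p = 0.0142). No Hox gene was called without control 2, control 4, Bmi1-deleted 1 or Bmi1-deleted 2 (0 in each), with replicates 3 and 4 alone, or with the fibroblast score described next as a covariate. The 16 tested genes of paralog groups 1 to 8, whose products bind with Pbx, had a median log2 change of 0.88 and the 3 tested genes of groups 9 to 13, some of which bind with Meis, 0.56. Among the other Hox genes at 1 CPM or more, Hoxc5 (2.61, SE 1.11, edgeR adjusted p = 0.561) had 0 to 22 counts per library and groups that did not overlap. Hoxc9 (2.50, SE 1.22, adjusted p = 0.633) had 0 to 48 counts and overlapping groups, and Hoxb4 (1.11, SE 0.50, adjusted p = 0.582) 13 to 142 counts and overlapping groups. The count filter keeps genes seen mainly in 1 group, such as Hoxc5 (0.275 CPM in control and 1.73 CPM in Bmi1-deleted libraries), which can raise these medians. They also do not cover the 20 Hox genes left out, and the median over all tested genes was 0.01. Of the 19 tested Hox genes, 2 had groups that did not overlap and were higher, Hoxd8 and Hoxc5, against 2.79% of all tested genes. In the other direction there were 0, against 2.39%. Because the lists were chosen with earlier results of these data known, nothing is read from these counts.

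Retinoic acid, a vitamin A derivative, is known to induce Meis1 and Meis2 in limb and neural tissue. Of 20 genes of its receptors, carriers and enzymes 15 were tested and 0 were called in either direction (3 at an unadjusted p under 0.05, 2 of them higher; DESeq2 0, limma on TPM 0); the median log2 change was 0.32. With the block 0 were called and 4 had an unadjusted p under 0.05. Rarb, a receptor gene that retinoic acid itself induces, stood at 33.4 ± 6.57 CPM in control and 18.2 ± 9.88 CPM in Bmi1-deleted libraries, groups that did not overlap (−0.87, SE 0.38, edgeR adjusted p = 0.579). Rarb was called lower when no count filter was used and with replicates 1 and 2 alone. Dhrs3, a retinaldehyde reductase gene named after its values were seen, was the 1 gene of the list with non-overlapping groups that were higher, at 20.6 ± 2.53 and 31.8 ± 5.02 CPM (0.63, SE 0.185, edgeR adjusted p = 0.314). Of the 15 tested genes, 1 was thus higher and 1 lower without overlap, against 2.79% and 2.39% of all tested genes. Nothing is read from these counts. Cyp26b1, which breaks retinoic acid down, had a log2 change of 0.68 (SE 0.76, edgeR adjusted p = 0.903).

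**Figure D5:**
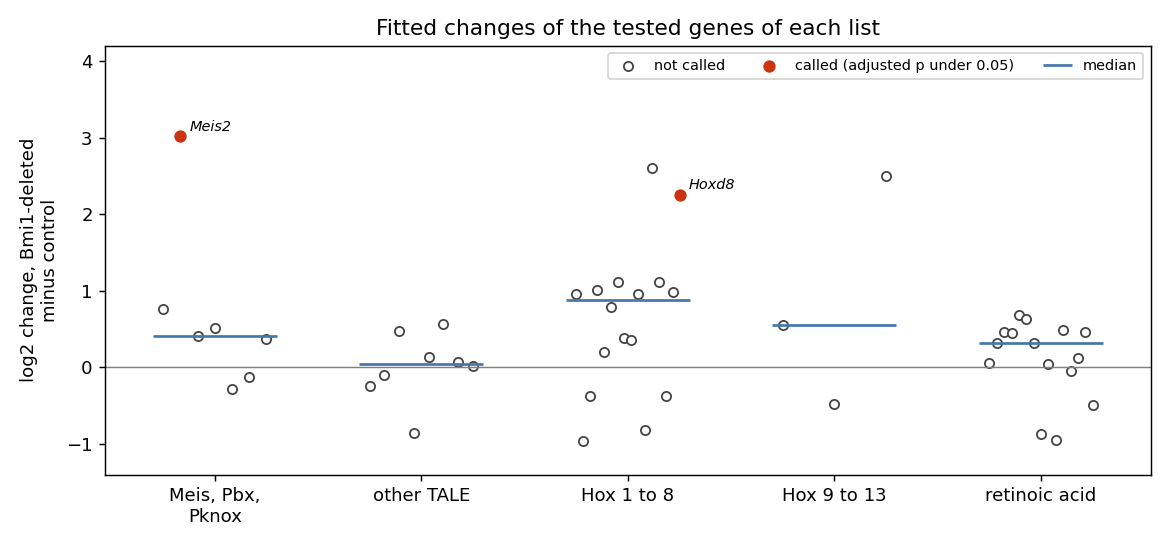
Fitted log2 change, Bmi1-deleted minus control (vertical axis), of each tested gene of the Meis, Pbx and Pknox genes, the other TALE genes, Hox groups 1 to 8 and 9 to 13 and the retinoic acid genes; filled points were called by edgeR and lines are medians. Meis2 at 3.02 and Hoxd8 at 2.26 are the called genes.

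No marker of another skin cell type was called by edgeR, but fibroblast and Schwann cell markers were mostly higher in the Bmi1-deleted libraries. Of 17 fibroblast markers 15 were tested, with a median log2 change of 1.01; 8 were higher and 1 lower at an unadjusted p under 0.05, 3 higher by DESeq2, 0 by limma on TPM, and 6 were called higher with the replicate block. All 8 Schwann cell markers were tested, with a median of 0.56; 5 were higher at an unadjusted p under 0.05, 3 by DESeq2, 0 by limma on TPM, and 6 were called higher with the block. Schwann cell markers summed to 2635 to 4789 CPM in control and 4644 to 6379 CPM in Bmi1-deleted libraries. The corresponding sums were 18.6 to 42.9 and 30.1 to 107.6 CPM for endothelial, 504 to 648 and 506 to 758 CPM for mural and 1679 to 2156 and 1411 to 2383 CPM for keratinocyte markers. Immune markers, at 49.9 to 74.8 and 77.2 to 98.95 CPM, did not overlap. Adipocyte markers summed to 1.28 to 6.10 and 4.27 to 15.8 CPM, with Cidec at 0 throughout, and skeletal muscle markers to 5.09 to 8.82 and 6.12 to 12.7 CPM. Median log2 changes were also above 0 for endothelial (0.85, 6 tested), mural (0.39), immune (0.37) and adipocyte markers (1.52, 2 tested). The median was 0.04 for keratinocyte markers and −0.38 for the 1 skeletal muscle marker tested. At an unadjusted p under 0.05, 2 endothelial and 1 mural marker were higher, and of the keratinocyte markers 1 was higher and 2 lower. With the replicate block, 1 keratinocyte marker was called higher. Over all tested genes the block called 1.71% higher and 0.706% lower. Fibroblast markers summed to 8291, 6840, 5581 and 4765 CPM in control libraries 1 to 4, the same order as their Meis2 levels (4.57, 2.99, 2.67 and 1.58 CPM). In Bmi1-deleted libraries 1 to 4 they summed to 17674, 14903, 10270 and 8082 CPM, where Meis2 stood at 23.5, 22.5, 22.7 and 28.0 CPM, highest in the library with the lowest sum. With a score of the fibroblast markers as a covariate the log2 change of Meis2 was 2.95, that of Meis1 0.90 and that of Pknox2 −0.23. The score itself was mostly higher in Bmi1-deleted libraries (−0.394 to 1.092) than in control (−0.798 to −0.102). The fit with the covariate therefore cannot separate the score from the genotype. The part of fibroblasts or of the other cell types in these values was not tested. In bulk RNA more cells of a type and more RNA per cell cannot be told apart.

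The protein-coding genes with the pattern most like Meis2 were found by the mean absolute difference of centred log2 CPM over the 8 libraries, among 13063 candidates with a median of 1.51. They were Igf2bp1, an RNA-binding protein gene of embryonic tissue (0.23), Prdm8, a repressor gene (0.25), Gata2, a blood and endothelial factor (0.44), Foxf1, a mesenchymal forkhead factor (0.47), and Col9a2, a cartilage collagen gene (0.52). All 5 had non-overlapping groups that were higher after deletion, against 2.79% of all tested genes. Of them Prdm8 (2.74 to 21.3 CPM, log2 change 2.95) and Foxf1 (5.08 to 24.8 CPM, 2.28) were called. Igf2bp1 (0.876 and 7.98 CPM, edgeR adjusted p = 0.0515), Gata2 (2.34 and 11.5 CPM, adjusted p = 0.0994) and Col9a2 (2.74 and 10.4 CPM, adjusted p = 0.136) were not, but were called with the replicate block (adjusted p = 0.00586, 0.0053 and 0.0128). Likeness here mostly follows the contrast itself and says nothing of shared control. The 5 genes were picked for likeness to Meis2 in these same libraries. Their separation and calls largely follow from that choice and are descriptions.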

How the data were processed

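The labelled genotype set the groups of 4 and 4, with replicate numbers from the titles; members and lists were chosen with earlier results of these data known. The authors deposited estimated counts per gene as whole numbers without normalisation, for which the submitters' processing notes name Salmon 1.2.1 and mm10, and a second table of log2 values, TPM plus 1. Annotation version, strand setting and rounding are not stated in the labels. Libraries were made with a stranded total RNA kit from a low RNA input and amplified by PCR per the labels' protocols, and no molecular identifiers are mentioned, so counts include PCR copies. Symbols and positions came from GENCODE M21 (mm10), which named 54096 identifiers, and promoters from RefSeq (GRCm38.p6). TALE genes outside the named lists, and 1 gene that the rule below would name, are not reported here.

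In edgeR 4.0.16 (R 4.3.3), low counts were removed by filterByExpr; the rest were scaled by TMM and compared by its robust quasi-likelihood F test over all 16011 kept genes, two-sided; the standard error came from the F statistic. On simulated counts of 15310 genes for this comparison, 121 of 200 changed genes were recovered with 5 false calls. Named genes were the 8 members and, per list, every called gene and up to 3 others with the largest absolute change at a mean of at least 1 CPM; genes like Meis2 were the 5 nearest, and neighbours the nearest protein-coding genes on each side. No library was a repeat of another: within groups, pairs varied 12.2 to 38.2 times more than counting error alone. No other column of per-sample values was present. Libraries with the same number correlated at 0.124 to 0.186 across genes after centring within genotype, each over 0.1. The numbers were therefore used as a block in an alternative fit, while the main fit has no block. No label explains such a pairing. Only 4 of 8 libraries correlated most with the library of that number. Within each genotype, replicates 1 and 2, and replicates 3 and 4, were the closest pairs. They varied 19.3 and 17.3 times more than counting error alone in control, and 12.3 and 12.2 times in Bmi1-deleted libraries. The other pairs varied 23 to 38.2 times in control and 24.6 to 35.2 times in Bmi1-deleted libraries. Whether a split of replicates 1 and 2 from 3 and 4, rather than pairs by number, underlies the correlations was not tested. Alternatives were DESeq2 1.42.0, limma 3.58.1 on log2 TPM, other filters and scaling, the block, replicates 1 and 2 or 3 and 4 alone, a fibroblast covariate and each library left out.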

Additional observations from a re-analysis of the deposited data

How the results depend on the processing

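Under 17 alternatives Meis2 was called higher in each (log2 change 1.81 on log2 TPM to 3.54 with replicates 3 and 4 alone; highest adjusted p = 0.0466, limma on log2 TPM) and no other member was called; leaving out each library in turn gave Meis2 2.82 to 3.32. Meis1 ranged from 0.26 to 0.90, Pbx2 from 0.16 to 0.68, Meis3 from 0.08 to 0.55 (16 alternatives, since it fails a filter of 10 CPM) and Pbx3 from −0.38 to −0.15. Pknox1 ranged from −0.92 (limma on log2 TPM) to 0.07, its sign turning without control 1. Without each library in turn Pknox1 ranged from −0.22 to 0.07. Pknox2 ranged from −0.23 to 0.65, its sign turning with the fibroblast score (−0.23). Without each library in turn Pknox2 ranged from 0.11 to 0.65. The cause of these turns was not tested. The replicate block changed no call of a TALE, Hox or retinoic acid gene. The count of all genes called, 15, became 158 with DESeq2, 380 with no filter, 4 with limma on TPM, 386 with the replicate block, 156 with replicates 1 and 2 alone, 47 with the fibroblast score and 8 to 45 without each library in turn. Hox genes called higher, 1, became 2 with no filter (Hoxb13 added), 0 with limma on TPM, 0 with replicates 3 and 4 alone, 0 with the fibroblast score and 0 to 1 without each library. Retinoic acid genes called lower, 0, became 1 with no filter and 1 with replicates 1 and 2 alone, in both Rarb. The order of control levels kept 25 to 28 of 28 pairs. Pbx4 was tested in only some alternatives and called in none of them. Its log2 change was −1.30 with no filter, −0.63 with replicates 3 and 4 alone and −1.60 to −0.98 in 5 fits that left out 1 library. Counts of 14 to 43 for Meis2 in control and 1 to 18 for Pbx4 limit precision.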

Other observations

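The nearest protein-coding genes on either side of the 8 TALE genes, with Gpsm3, which overlaps Pbx2, number 17, of which 16 were tested and 0 were called by edgeR, with or without the replicate block (0 at an unadjusted p under 0.05, 0 by DESeq2 and 0 by limma on TPM). Their median log2 change was 0.20, from −0.22 for Mapkap1 beside Pbx3 to 1.21 for Lpar2, a lysophosphatidic acid receptor gene beside Pbx4 (1.75 and 4.07 CPM in control and Bmi1-deleted libraries, adjusted p = 0.605). Beside Meis2, the nearest on the lower side, BC052040, 84.3 kb away, had 2.85 and 3.49 CPM (log2 change 0.29, SE 0.57, adjusted p = 0.954), and Tmco5, 813 kb away on the other side, did not pass the count filter. The non-coding genes nearest the Meis2 start, 2700033N17Rik on its strand and G630016G05Rik on the other, had 0 to 6 and 0 to 5 counts. Beside Meis1, Etaa1, 926 kb away, and Spred2, 905 kb away, had log2 changes of 0.24 and 0.08.

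Across the 32 sets of 4 libraries formed by the 8 genes, both groups and both scales, no library stood apart from the rest of its group by Dixon's test at the 95% level. With 4 libraries per set the test finds only a library very far from the rest, so it does not show that smaller departures were absent.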
